A study of Homo sapiens with 8 samples.

Results

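The MRPL and MRPS genes encode the protein subunits of the mitochondrial ribosome, and their values here are counts of RNA fragments that an antibody to N4-acetylcytidine (ac4C) pulled down from 2 human osteosarcoma cell lines. Each peak was assigned to the single protein-coding GRCh38 gene it overlapped, with readthrough genes such as URGCP-MRPS24 set aside, and the genes whose symbols start with MRPL or MRPS were kept. Of 77 such genes in the annotation, 48 had at least 1 assigned peak, among 6766 protein-coding genes with a peak. Peaks over no protein-coding gene went to the single other gene they overlapped, which made 9093 genes in all. The 48 held 59 peaks: 39 genes had 1 peak, 7 had 2 and 2 had 3. By subunit, 32 of the 48 belong to the large subunit of the mitochondrial ribosome, counting MRPS30, which sits there despite its symbol, and 16 to the small subunit.

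Mitochondrial ribosomes translate the few mRNAs of the mitochondrial genome, which code for core subunits of the respiratory chain. Their ribosomal RNAs are made inside the organelle, whereas all of their proteins are encoded by nuclear genes, translated in the cytosol and imported. Some of these proteins descend from bacterial ribosomal proteins and others were added later and have no bacterial counterpart. The modification ac4C is written by NAT10, an acetyltransferase of the nucleolus that acts on ribosomal RNA, tRNA and other RNA.

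The libraries came from 143B cells and from HOS cells, the osteosarcoma line from which 143B was derived. In each line the labels give a control genotype, NC, and sgNAT10, the NAT10 knockout. Neither the number of guides or clones nor the time after editing was given in the sources used here. In every group poly(A) RNA was fragmented and bound with the anti-ac4C antibody (acRIP). Each combination of line and genotype had 1 library, 4 in all, so that no difference within a line has a replicate check, and the intervals below cover counting error only. The column names of the count tables give line and genotype but not the assay. They were read as the acRIP libraries on the ground that the tables carry RIP in their name. The input samples were not analysed here, and a count therefore mixes the amount of an RNA with its recovery by the antibody. In bulk samples, fewer cells carrying an RNA and less of it per cell cannot be told apart.

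Summed counts over the 31395 peaks ranged from 20107718 to 24785306 per library. A block of ribosomal RNA peaks on chromosome 21 took 34.0 to 60.3% of them. NAT10 itself was lower under the sgNAT10 label in HOS, and in 143B its interval included 0. In 143B its counts were 65 (NC) and 130 (labelled sgNAT10), a shift of 0.25 on the log2 scale (95% counting interval -0.19 to 0.70), whereas in HOS it had 180 and 63, a shift of -1.84 (-2.29 to -1.43). The peak lies at the 3′ end of the gene, and whether it lies inside the edited stretch was not tested. The 143B library labelled sgNAT10 stood apart, with Spearman correlations across peaks of 0.583 to 0.718 with the other 3 libraries against 0.803 to 0.865 among those. Of 10 mesenchymal markers 5 were measured, with VIM at 6923 to 21284 counts. All 5 were lower in the 143B library labelled sgNAT10 than in its control: RUNX2 shifted by -2.06, TNC by -1.98, VIM by -1.24, ALPL by -1.21 and SPARC by -0.20. In HOS their shifts ran from -1.85 (SPARC) to 0.80 (RUNX2). Of 5 epithelial markers 3 were measured. CDH1 had 30 and 7 counts in 143B and 5 and 812 in HOS (shifts of -2.63 and 6.80), KRT8 shifted by -0.31 and -0.89, and KRT18 by 0.39 and -0.65. Of 5 blood markers PTPRC was the only one with a peak, at 2 to 22 counts. The part of these differences in the results below was not tested.

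Fragments of the mitochondrial ribosomal protein genes took a larger share of the counts on protein-coding genes in the 143B library labelled sgNAT10 than in its control, and a smaller share in HOS. In 143B the 48 genes together had 6665 counts in NC against 13542 with the sgNAT10 label, which were 0.307% (95% Wilson interval 0.299 to 0.314) and 0.623% (0.613 to 0.634) of the counts on protein-coding genes. In HOS they had 9581 and 7830 counts, or 0.369% (0.362 to 0.377) and 0.236% (0.231 to 0.241). These shares need no scaling between libraries, but they depend on the total they are set against. In HOS the counts on protein-coding genes were 2595519 in NC and 3315872 with the sgNAT10 label. Of all counts, the members took 0.0331% and 0.0605% in 143B, but a nearly level 0.0387% and 0.0371% in HOS. Those totals include the ribosomal RNA block, which took 42.6% and 34.0% of all counts in 143B and 60.3% and 42.5% in HOS. The shares of protein-coding counts moved in opposite directions in the lines, and the HOS control lay above the 143B control.

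The same pattern stood in most single genes. The shift of a gene is the difference in log2 CPM (counts scaled to a common library size), the library labelled sgNAT10 minus NC, with a prior count of 1 and TMM scaling. The median shift of the 48 was 0.50 in 143B, over a range of -0.82 to 2.70, against a median of -0.06 over all 8058 gene sums tested. In HOS their median was -0.56, over a range of -2.25 to 2.20, against 0.04. In 143B 38 of the 48 were higher in the library labelled sgNAT10, where 47.6% of all genes were, and in HOS 44 were lower, where 48.3% were. The counting interval lay above 0 for 28 genes and below 0 for 3 in 143B. In HOS it lay below 0 for 31 and above 0 for 1. No share of all genes past the same interval is given here, so these interval counts describe the members alone.

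**Figure D1:**
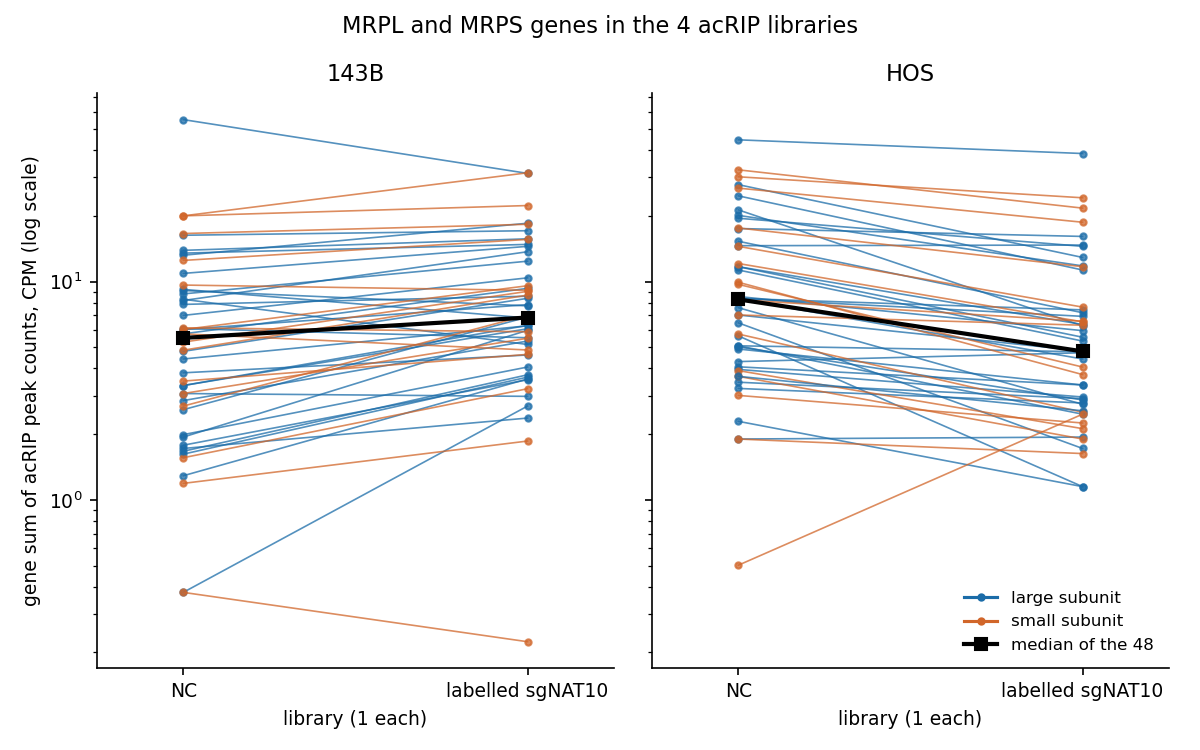
Gene sums of acRIP peak counts, in CPM on a log scale, for the 48 MRPL and MRPS genes in the 1 NC library and the 1 library labelled sgNAT10 of 143B (left) and HOS (right). Each line joins the 2 values of a gene, coloured by subunit, and black squares mark the medians. Most lines go up in 143B (38 of 48) and down in HOS (44 of 48).

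Both directions together, higher in 143B and lower in HOS, were found in 36 of the 48 genes, against a background of 22.8% of all genes. A further 8 were lower in both lines (25.5% of all genes), 2 were higher in both (24.8%) and 2 had the reverse, lower in 143B but higher in HOS (27.0%). How large the shift was in one line said little of its size in the other, with a Spearman rho of 0.05 and a Pearson r of -0.17 over the 48 genes, which share the libraries and their scaling.

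By size, 9 genes were higher by 2-fold or more in 143B, a share near the background of 14.5%, and 0 were lower by that much, against a background of 23.2%. In HOS 13 genes were lower by 2-fold or more (background 12.8%), and 1, MRPS31, was higher by that much (background 16.8%). These counts depend on the scaling. Library totals in place of TMM add 0.60 to every 143B shift and 0.57 to every HOS shift. With them 28 genes were higher by 2-fold in 143B (32.6% of all genes) and 3 lower in HOS (3.47% of all genes). The HOS median was then -0.01, and 24 of 47 tested genes were lower in HOS, where 24.7% of all genes were. Because a scaling adds the same constant to every gene of a line, the distance between the members and all genes could hardly move. It was 0.56 to 0.58 in 143B and -0.63 to -0.59 in HOS under the 6 scalings tried.

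**Figure D2:**
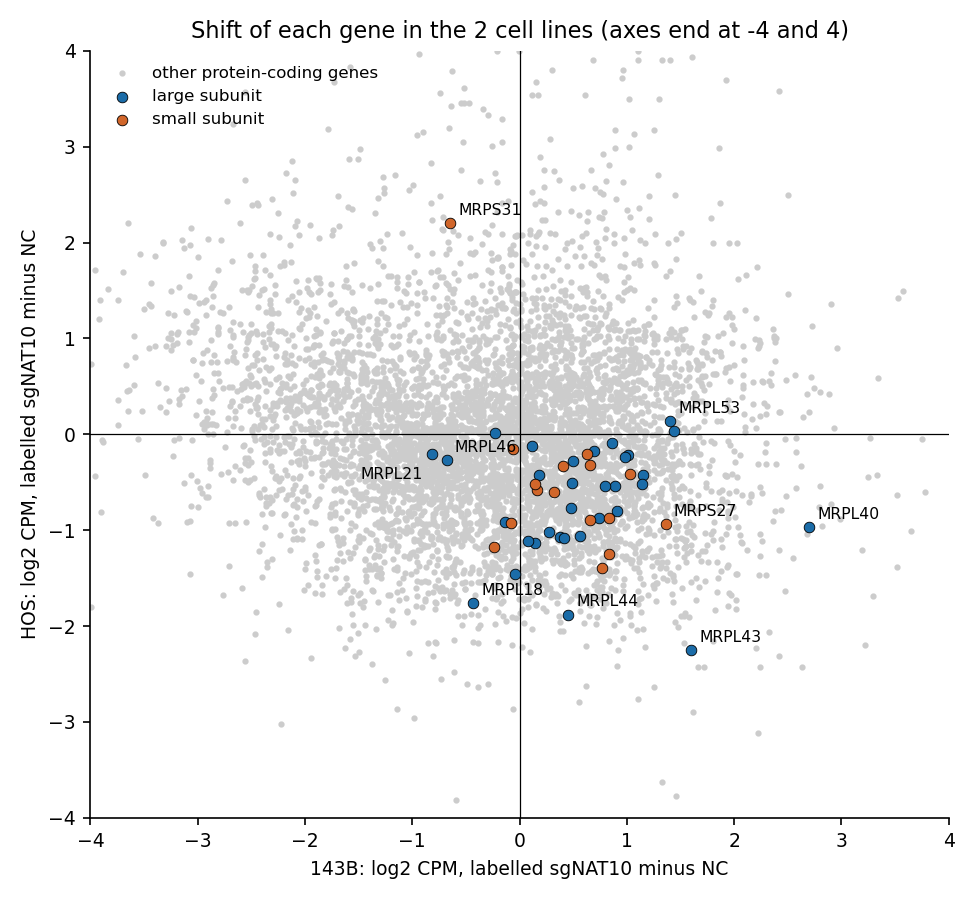
Shift of each gene in 143B (horizontal) and in HOS (vertical), in log2 CPM, the library labelled sgNAT10 minus NC. Large subunit genes are blue, small subunit genes orange and the 6274 protein-coding genes tested grey, of which 48 lie outside the axes. Most MRPL and MRPS genes (36 of 48) sit at the lower right, and MRPS31 stands alone at the top.

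No gene passed the test across both lines. In edgeR's quasi-likelihood test on gene sums, with cell line and genotype as terms and 1 residual degree of freedom, 0 of the 48 had an adjusted p below 0.05 (smallest adjusted p = 0.993, smallest unadjusted p = 0.221). The background was 0.0% of all genes called, and 3.86% at an unadjusted p below 0.05, where the members again had 0, in DESeq2 and limma too. Limma called 0.199% of all genes at an adjusted p below 0.05 and 0 members. Tested as peaks, 0 of the 59 member peaks passed, nor were any below 0.05 unadjusted in edgeR, where 2.28% of all tested peaks were. The test looks for a change shared by both lines, so the 36 genes higher in 143B and lower in HOS could hardly pass it. MRPL43, with shifts of 1.60 and -2.25, had an estimate of -0.31 (SE 0.85). For this reason, and with 1 residual degree of freedom, a count of 0 does not show that the genes were alike between genotypes. Every direction given here describes these 4 libraries.

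The highest values belonged to a mixture of both subunits. Per kilobase of peak, MRPS21, the counterpart of bacterial S21, came first with a mean of 128 CPM, followed by MRPS34 with 94.6 and MRPL12 with 93.2. MRPL51 had 86.5 and MRPS24, the counterpart of bacterial S3, 86.2. The lowest was MRPS31 with 8.60. MRPS21 had 371 counts in 143B NC, 696 in the 143B library labelled sgNAT10, 582 in HOS NC and 492 in the HOS library labelled sgNAT10. MRPS34, a small subunit protein with no bacterial counterpart, had 371, 986, 541 and 549 counts in the same order, and its shifts were 0.66 (0.48 to 0.83) and -0.32 (-0.49 to -0.14). Both genes were higher in the 143B library labelled sgNAT10, but in CPM only MRPS34 had an interval above 0, since that of MRPS21 was -0.03 to 0.34 around 0.16. MRPS24 had 308, 573, 480 and 423 counts, with shifts of 0.14 and -0.52.

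Among large subunit genes, MRPL12 and MRPL11 shifted little in 143B and by over 2-fold in HOS. MRPL12 builds the flexible stalk that contacts translation factors, and its counts were 302, 536, 499 and 292, again in the order 143B NC, 143B labelled sgNAT10, HOS NC and HOS labelled sgNAT10, which holds for every run of 4 counts below. Its shift was 0.08 (-0.13 to 0.28) in 143B and -1.11 (-1.32 to -0.90) in HOS. MRPL11, which lies at the base of that stalk, had 250, 463, 443 and 255 counts and nearly the same shifts, 0.14 and -1.13. MRPL12 and MRPL11 thus stood at about the all-gene level in 143B and more than 2-fold lower in HOS. MRPL10, also of the stalk, did not share this, with shifts of 1.44 and 0.03. MRPL51 had 245, 577, 361 and 268 counts, with shifts of 0.48 and -0.77. MRPL28 had 258, 491, 349 and 329 counts, with shifts of 0.18 and -0.42.

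MRPL21, the counterpart of bacterial L21, went the other way in 143B. It had the highest mean CPM of the 48, with counts of 1024, 979, 799 and 875, spread over 3 peaks. Its 143B shift of -0.82 (-0.94 to -0.69) was the lowest of the 48, and its HOS shift was -0.21. All 3 of its peaks were lower in 143B, by shifts of -0.44, -0.80 and -1.12. Across the 48 genes, a higher mean count went with a lower 143B shift (Spearman rho -0.50, over genes that share 4 libraries), while in HOS the rho was -0.09.

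The largest 143B shift was that of MRPL40 (Gene ID 64976), a large subunit protein with no bacterial counterpart, whose gene lies in the 22q11 region. Its single peak, on chromosome 22 from 19435918 to 19436029, ended 46 bp from the 3′ end of the gene. In 143B its counts were 7 in NC and 84 with the sgNAT10 label, a shift of 2.70 with an interval of 1.73 to 4.19. In HOS it had 41 and 26 counts, a shift of -0.97 (-1.76 to -0.25). The 143B control was thus the low library of the 4, and the HOS control stood 2.47 log2 units above it. With a prior count of 5 the 143B shift was 2.28.

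MRPL43 (Gene ID 84545), another large subunit protein, had large shifts in both lines, with opposite signs. Its peak on chromosome 10, from 100986299 to 100986495, had 36, 187, 101 and 26 counts, so that the HOS library labelled sgNAT10 was the lowest and the 143B library labelled sgNAT10 the highest. The shift was 1.60 (1.10 to 2.18) in 143B and -2.25 (-2.98 to -1.66) in HOS, the lowest HOS value of the 48. The peak lay 8479 bp from the 3′ end of the annotated span, at 11.4% of the span from the 5′ end. A gene span here covers all annotated transcripts, and a peak inside it may lie at the end of a shorter one, which was not tested.

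MRPL10, MRPL53 and MRPS27 followed in 143B. MRPL10, to which MRPL12 binds in the stalk, had 24, 112, 34 and 44 counts, with shifts of 1.44 (0.82 to 2.17) in 143B and 0.03 in HOS. MRPL53 had 48, 215, 77 and 107 counts, with shifts of 1.40 (0.95 to 1.89) and 0.14. These were the 2 genes higher in both lines, and their HOS intervals, -0.64 to 0.72 and -0.30 to 0.58, included 0. MRPS27, an RNA-binding small subunit protein of the pentatricopeptide repeat kind, had 50, 219, 66 and 43 counts, with shifts of 1.36 and -0.94. MRPL32, whose maturation in the matrix by the m-AAA protease is a known step of ribosome assembly, had 37, 127, 58 and 63 counts, with shifts of 1.01 and -0.22.

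At the low end in HOS, MRPL43 was followed by MRPL44, MRPL18, MRPL3 and MRPS12. MRPL44, a protein with a ribonuclease III fold, had 32, 74, 116 and 39 counts and a HOS shift of -1.88 (-2.47 to -1.38). MRPL18, the counterpart of the bacterial protein that holds 5S rRNA, had 171, 213, 382 and 142 counts and was lower in both lines. Its shifts were -0.43 (-0.73 to -0.14) in 143B and -1.76 (-2.05 to -1.48) in HOS, and the edgeR estimate over both was -1.10 (SE 0.90, adjusted p = 0.993). MRPL3, which reaches toward the peptidyl transferase centre, had 57, 93, 136 and 62 counts, with shifts of -0.04 and -1.46. MRPS12, the counterpart of the S12 protein at the decoding centre, had 98, 282, 178 and 85 counts, with shifts of 0.77 and -1.39. MRPS25 had 107, 152, 103 and 57 counts, with shifts of -0.24 and -1.18. These genes were picked by low shifts in HOS or over both lines, so their lower HOS values are no separate result. In 143B they fell on both sides of 0.

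MRPS31 (Gene ID 10240), a small subunit protein, was the exception in HOS. Its peak, of 104 bp and the narrowest of the 59, lay 17512 bp from the 3′ end and had 7, 7, 9 and 56 counts. The HOS shift was 2.20 (1.27 to 3.50), and in 143B it was -0.65 with an interval of -2.49 to 0.99. The HOS library labelled sgNAT10 alone was high, as it was for CDH1 above. A peak of 105 bp in MRPS35, 41082 bp from the 3′ end, had the same outline with 13, 6, 21 and 83 counts. Pseudogenes are annotated for 24 of the 48 members, and none of the 106 annotated pseudogenes of MRPL and MRPS genes had an assigned peak. How reads that match a gene and its pseudogene were placed is not given in the sources used here, so counts of such genes are uncertain.

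MRPL46, MRPL1 and MRPL2 complete the genes at the extremes of the lists. MRPL46 had 154, 161, 150 and 157 counts, nearly level before scaling, and shifts of -0.68 and -0.27. MRPL1, whose bacterial counterpart forms the mobile stalk at the tRNA exit site, had 62, 190, 91 and 108 counts, with shifts of 0.86 and -0.09. MRPL2, a counterpart of a protein near the catalytic centre, had 169, 242, 261 and 333 counts, with shifts of -0.23 and 0.01. MRPL2 and MRPS31 were the pair lower in 143B and higher in HOS, and only MRPS31 had an interval away from 0 in HOS.

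The subunits did not stand apart. The medians of the large subunit genes were 0.50 (143B) and -0.54 (HOS), and those of the small subunit genes 0.51 and -0.59. The 24 genes numbered after bacterial proteins had medians of 0.53 and -0.59, and the 24 numbered as mitochondrial additions 0.49 and -0.52. When MRPL47, MRPS24 and MRPS28 were moved to the bacterial class by their known counterparts, the medians were 0.38 and -0.58 for 27 genes and 0.66 and -0.52 for 21. In both lines the quartiles of all these classes overlapped. A clearer split was by the number of peaks, since the 39 genes with 1 peak had medians of 0.66 and -0.60 and the 9 with several had -0.08 and -0.21.

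The controls of the lines already differed for these genes. In HOS NC 44 of the 48 were higher than in 143B NC, where 52.4% of all genes were, with a median difference of 0.67 log2 units against 0.06. Protein-coding genes alone had a median of 0.29, with 3770 of 6274 higher in HOS NC. The cytosolic ribosomal protein genes had 0.90, with all 78 higher, so the difference was not particular to the members. The difference ranged from -0.31 for MRPL21 to 2.47 for MRPL40, and MRPL44 followed with 1.88. The order of the genes was nearly the same in both controls (Spearman rho 0.95 across the 48). Between the libraries labelled sgNAT10 the difference had the other sign: 8 of the 48 were higher in HOS, with a median of -0.48 against 0.12 for all genes. These comparisons share libraries with the shifts above and are not independent of them.

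The 143B value of a peak went with its place along the gene. Strand was known for 42 members with 48 peaks, from RefSeq promoter windows. Of these 48 peaks, 27 (56.2%) lay within 500 bp of the 3′ end of the gene span, against 11.0% of 10305 tested peaks of other protein-coding genes. Only the MRPL38 peak lay at a 5′ end, the MRPL41 peak was within 500 bp of both ends of its short gene, and 19 peaks were internal. At the 3′ end, 26 of the 27 member peaks were higher in the 143B library labelled sgNAT10, against a background of 82.1% of all protein-coding peaks in that place, and 25 were lower in HOS, against 81.1%. Their medians were 0.74 and -0.54, beside 0.66 and -0.64 for the 3′-end peaks of other genes. At the 3′ end the members therefore had about the values of other genes.

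Away from the ends the medians lay apart, and this difference was not tested. The 19 internal member peaks had medians of 0.16 in 143B and -0.99 in HOS, whereas the 8902 internal peaks of other protein-coding genes had -0.68 and 0.18. In 143B 11 of the 19 were higher, against a background of 32.8%, and in HOS 17 were lower, against 43.2%. Among internal peaks that averaged at least 50 counts, all 16 of the members' were lower in HOS (median -1.01), against 51.0% of other genes' peaks (-0.03). That cutoff left out the 2 internal member peaks that were higher in HOS, in MRPS31 (2.20) and MRPS35 (1.61). It also left out an MRPL48 peak that was lower (-1.51). The 7 internal peaks under 1000 bp from the 3′ end, such as those of MRPL11, MRPL44 and MRPS21, had medians of 0.27 and -1.13. The 12 farther away had -0.14 and -0.87. For other protein-coding genes, 250 of the 8902 internal peaks lay under 1000 bp from the 3′ end, with medians of -0.17 and -0.45. Their 8652 farther away had -0.68 and 0.20. Internal member peaks thus lay near the 3′ end more often, and the internal comparison above mixes both distances. Exons were not given in the annotation used here, so internal peaks of exons and introns were not separated. This split by distance was chosen after the values were seen.

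**Figure D3:**
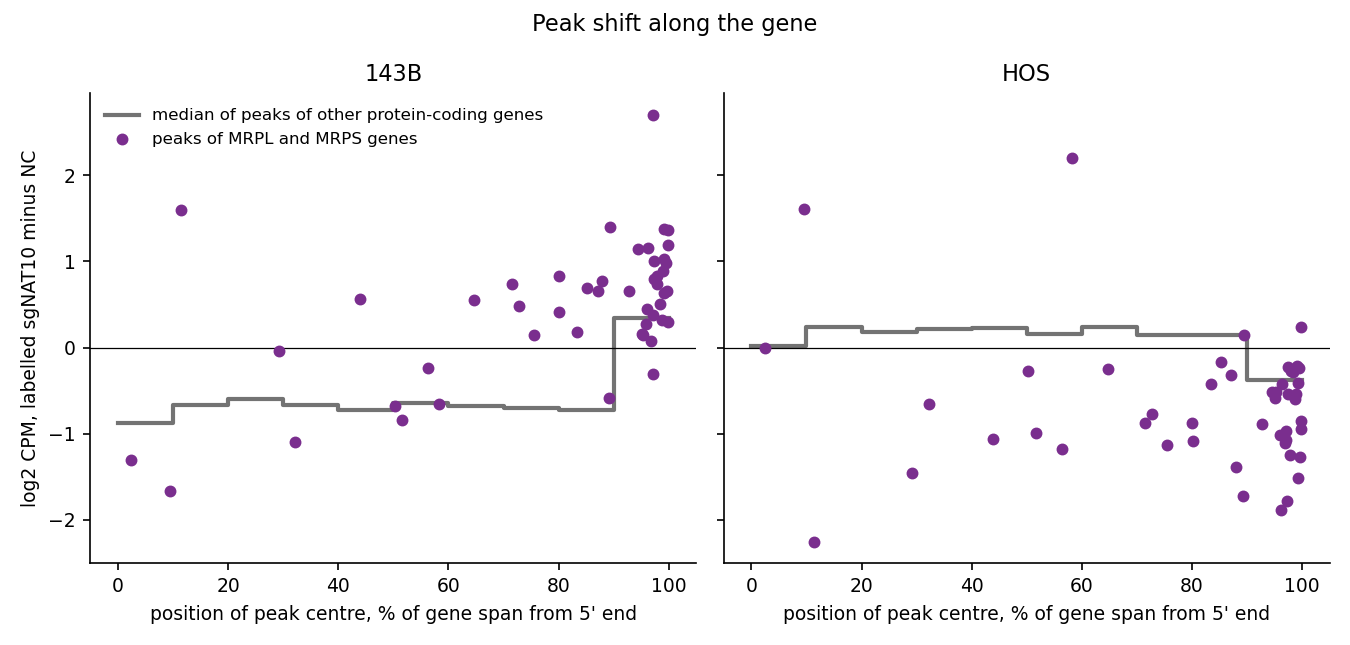
Shift of each peak (log2 CPM, the library labelled sgNAT10 minus NC) against the position of its centre, as a percent of the gene span from the 5′ end, in 143B (left) and HOS (right). Purple points are the 48 MRPL and MRPS peaks with a known strand, and the grey line is the median of other protein-coding peaks in each 10% of the span. Over the last 10% the grey line steps from -0.72 to 0.34 in 143B and from 0.14 to -0.38 in HOS, and most member peaks (26 of 48) lie there.

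Genes with a pair of peaks showed the difference inside 1 transcript unit. MRPL38, a large subunit protein with no bacterial counterpart, had a peak 45 bp from the 3′ end with 79, 223, 147 and 154 counts and a peak at the 5′ end with 67, 45, 166 and 210. In 143B the 3′ peak shifted by 0.74 (0.37 to 1.13) and the 5′ peak by -1.30 (-1.90 to -0.76), while in HOS the shifts were -0.27 and 0.00. The peaks of this gene thus lay on opposite sides of 0 in 143B. MRPL48 had an internal peak with 90, 70, 98 and 78 counts and a peak 544 bp from the 3′ end with 23, 103, 51 and 22. Their 143B shifts were -1.10 and 1.38, and their HOS shifts -0.66 and -1.51, so that the gene sum, with 113, 173, 149 and 100 counts, shifted by only -0.14 in 143B.

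MRPS35 and MRPS6 had the same order. The 3′ peak of MRPS35 had 52, 139, 127 and 66 counts, with shifts of 0.66 and -1.27, and its internal peak, given above, had -1.66 and 1.61. Its gene sum of 65, 145, 148 and 149 counts hid both. In MRPS6, the counterpart of bacterial S6, the 3′ peak had 103, 214, 139 and 97 counts and shifts of 0.30 and -0.85, and the internal peak had 76, 71, 120 and 76 counts and shifts of -0.84 and -0.99. MRPS6 as a sum had 179, 285, 259 and 173 counts. MRPS28, with 114, 184, 126 and 143 counts and no strand, held peaks shifted by 0.39, 0.24 and -1.29 in 143B, and MRPL2 held peaks at 0.26 and -1.22. Of the 9 members with several peaks, MRPL18 had the smallest range in 143B, with shifts of -0.59 and -0.31, and its HOS shifts were -1.72 and -1.78.

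In all 5 members with a 3′-end peak and another peak, the 3′ peak had the higher 143B shift, by a median of 1.14. Among 378 other protein-coding genes with both, 92.1% did, with a median of 1.40. In HOS the median differences were -0.07 and 0.09. In 143B the members' difference thus had the direction of most genes. In HOS 2 of the 5 were above 0, against 57.7% of the other genes.

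**Figure D4:**
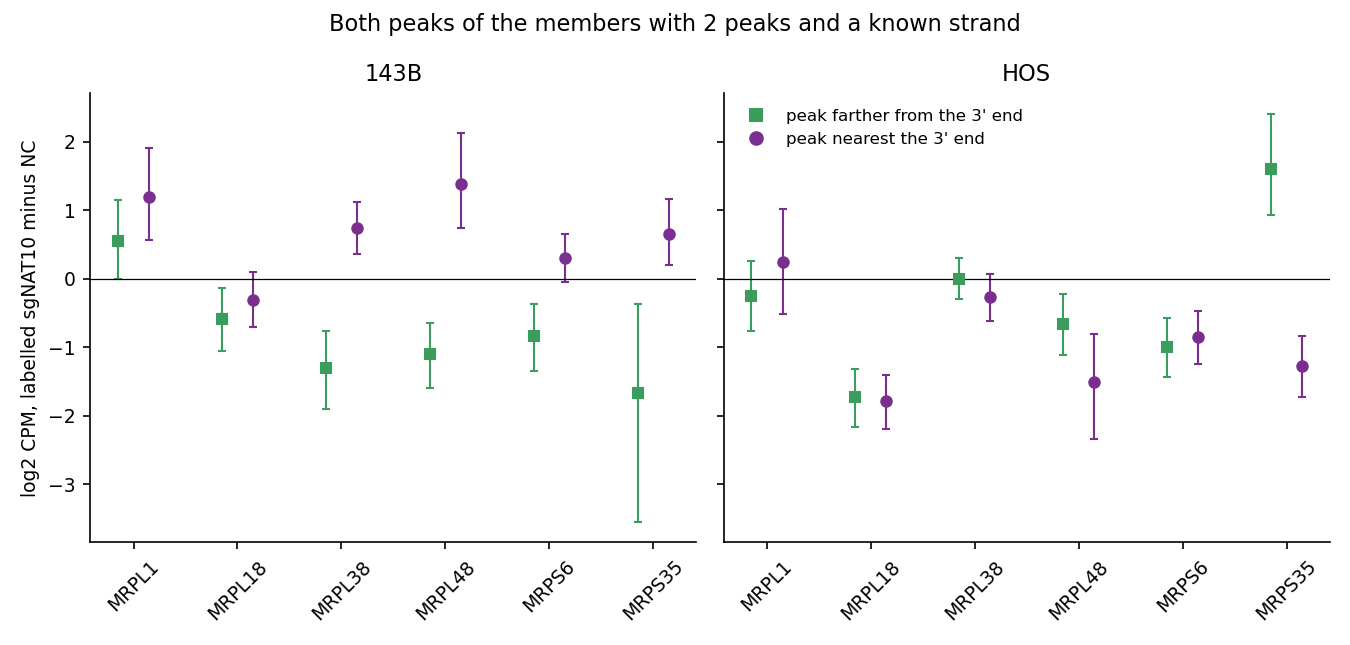
Shift (log2 CPM, the library labelled sgNAT10 minus NC) of the peak nearest the 3′ end (purple circles) and of the other peak (green squares) in the 6 members with 2 peaks and a known strand, in 143B (left) and HOS (right). Bars are 95% counting intervals, with 1 library per point and genotype. In 143B the purple circle is above the green square in each gene, and in MRPL38, MRPL48, MRPS6 and MRPS35 they lie on opposite sides of 0.

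Promoters of the members are printed here because they carry a feature that the rule did not use. Transcription of nuclear genes for mitochondrial proteins is known to depend on factors such as NRF1, GABPA of the ETS family and YY1. RefSeq (GRCh38.p14) windows of 300 bases, 250 before and 50 after the start, were found for 42 members and 15774 other protein-coding genes, and both strands were searched. The ETS letters CCGGAAG were in 20 of the 42 (47.6%) and in 14.0% of the others. The YY1 letters AANATGGCG were in 11 (26.2%) and in 4.68%. The NRF1 motif was in 4 (9.52%) and in 8.58%. At least 1 of the 3 was in 31 (73.8%) and in 23.9%. The motifs were chosen after the values were seen, no match of one overlapped that of another in the stretches printed, and a match is a description of the letters only. The 100 bases before the start, 5′ to 3′ on the strand of the gene, follow for some of the genes with the largest shifts or levels, with and without a match, and for an example of the YY1 and NRF1 motifs. Matches on either strand are in capitals.
MRPL40: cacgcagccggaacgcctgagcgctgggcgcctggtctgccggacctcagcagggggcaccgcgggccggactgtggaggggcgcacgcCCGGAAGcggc
MRPL43: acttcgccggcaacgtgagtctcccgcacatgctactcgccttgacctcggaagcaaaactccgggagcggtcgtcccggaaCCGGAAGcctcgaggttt
MRPL53: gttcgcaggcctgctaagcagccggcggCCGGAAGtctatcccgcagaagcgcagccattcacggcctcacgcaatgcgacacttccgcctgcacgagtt
MRPL3: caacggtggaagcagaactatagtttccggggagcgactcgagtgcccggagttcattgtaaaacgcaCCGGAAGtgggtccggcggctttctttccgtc
MRPS34: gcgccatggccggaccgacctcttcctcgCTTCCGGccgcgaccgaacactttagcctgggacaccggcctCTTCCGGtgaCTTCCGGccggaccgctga
MRPS21: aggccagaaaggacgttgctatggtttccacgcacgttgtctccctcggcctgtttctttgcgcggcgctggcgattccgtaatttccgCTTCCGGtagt
MRPL52: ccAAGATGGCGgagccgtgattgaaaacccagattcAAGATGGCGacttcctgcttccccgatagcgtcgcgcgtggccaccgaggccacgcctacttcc
MRPL17: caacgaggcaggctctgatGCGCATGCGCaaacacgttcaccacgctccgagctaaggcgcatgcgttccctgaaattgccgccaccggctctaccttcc
MRPL18: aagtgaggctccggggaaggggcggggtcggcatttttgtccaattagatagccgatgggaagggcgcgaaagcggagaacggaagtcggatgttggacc
MRPS27: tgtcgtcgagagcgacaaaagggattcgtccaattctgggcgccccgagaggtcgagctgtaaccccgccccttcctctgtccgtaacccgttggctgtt
MRPL44: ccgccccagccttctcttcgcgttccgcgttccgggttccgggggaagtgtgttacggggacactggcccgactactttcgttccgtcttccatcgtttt

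These stretches lie at chr22:19432445-19432544 (+ strand, MRPL40), chr10:100987498-100987597 (- strand, MRPL43), chr2:74472681-74472780 (- strand, MRPL53), chr3:131502972-131503071 (- strand, MRPL3), chr16:1773135-1773234 (- strand, MRPS34), chr1:150293761-150293860 (+ strand, MRPS21), chr14:22829787-22829886 (+ strand, MRPL52), chr11:6683341-6683440 (- strand, MRPL17), chr6:159789712-159789811 (+ strand, MRPL18), chr5:72320241-72320340 (- strand, MRPS27) and chr2:223957363-223957462 (+ strand, MRPL44). MRPS34 held 3 ETS matches in this stretch, all on the reverse strand, and MRPL52 held 2 YY1 matches. MRPL40, MRPL43, MRPL53, MRPL3 and MRPS21 held 1 ETS match each. MRPL18, MRPS27 and MRPL44, also among the largest shifts, held no match in this stretch, nor did MRPS12 and MRPL12, which are not printed. The start site of the MRPL44 window lies 6609 bp inside the annotated span of that gene. Members with an ETS match had median shifts of 0.64 and -0.48, and those without 0.43 and -0.89. With a YY1 match the medians were 0.69 and -0.27, and without 0.48 and -0.92. With an NRF1 match they were 0.68 and -0.80, and without 0.49 and -0.68. In HOS the median was thus less low with an ETS or YY1 match and lower with an NRF1 match, differences that were not tested.

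Other genes of mitochondrial translation, from lists chosen by function, were thinly measured. Of 5 mitochondrial ribosome proteins with other symbols 3 had a peak, and all 3 had positive shifts in 143B and negative ones in HOS. AURKAIP1, a small subunit protein, had 268, 717, 394 and 295 counts, with shifts of 0.67 and -0.75. CHCHD1, also of the small subunit, had 46, 196, 73 and 77 counts (1.32 and -0.26), and PTCD3, a pentatricopeptide repeat protein of that subunit, had 20, 84, 61 and 30 (1.28 and -1.33). The proteins without an MRP symbol were therefore on the same sides of 0 as most of the 48.

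Of 26 symbols of ribosome assembly and rRNA modification 7 had a peak, with medians of 0.39 and -0.84. MALSU1, which keeps the subunits apart during assembly, had 32, 160, 91 and 45 counts, with shifts of 1.55 and -1.33. MRM2, a methyltransferase of the large rRNA, had 36, 113, 62 and 19 counts, with shifts of 0.88 and -1.99. DHX30, an RNA helicase, had 138, 305, 263 and 162 (0.39 and -1.03). Of 14 translation factors 4 were measured (medians 0.52 and -0.56), among them TUFM, the elongation factor that brings tRNA to the ribosome, with 737, 1122, 1262 and 808 counts and shifts of -0.15 and -0.98. OXA1L, which inserts the new chains into the inner membrane, had 82, 307, 199 and 134 counts (1.14 and -0.90).

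The 4 measured tRNA synthetases of 20 listed had medians of -0.19 and -0.56, and all 4 lay at or below -0.01 in 143B. Of 19 genes of mitochondrial transcription and RNA handling 4 were measured, with medians of 1.0 and -1.54. SLIRP, an RNA-binding partner of LRPPRC, had 696, 2034, 1530 and 890 counts (0.79 and -1.12), and TRMT10C, a subunit of mitochondrial RNase P, had 9, 81, 29 and 8. TFAM, which packages mitochondrial DNA and starts its transcription, was lower in both lines with 62, 52, 122 and 39 counts (-0.99 and -1.96). None of these genes passed the edgeR test at an adjusted p of 0.05. The 78 cytosolic ribosomal protein genes, by comparison, had medians of 0.34 and -0.37, and 60 of them had a positive 143B shift with a negative HOS shift.

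Of the 29 annotated members without an assigned peak, 26 overlapped no peak, and MRPL24, MRPS18A and MRPS7 had a peak that overlapped several genes. Peaks were listed once for all libraries, and a gene without one is not shown to lack RNA or ac4C. All 48 measured members passed the filter on low counts, so the values above cover each of them. Of their peaks, 8 in 6 members (MRPL1, MRPL20, MRPL28, MRPS2, MRPS24 and MRPS28) also overlapped a noncoding, pseudogene or readthrough annotation, with which the counts may be shared.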

How the data were processed

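The deposited values are raw read counts per genomic peak interval, made by the authors, with 1 table for 143B and 1 for HOS over the same list of intervals. FastQC, STAR, SAMtools, deepTools and the build GRCh38 stand in the submitters' processing notes with no version and no role. How peaks were called and reads counted, the strand setting and whether interval starts count from 0 or 1 are not given in the sources used here. Peaks were assigned by overlap with the gene spans of a GRCh38 RefSeq table of 59792 genes, and counts were summed per gene. TMM factors over all peaks ranged from 0.723 to 1.40. Gene sums that passed filterByExpr, with a minimum count of 10, were tested with edgeR 4.0.16 (glmQLFit and glmQLFTest, cell line and genotype as terms, Benjamini-Hochberg adjustment over 8058 sums) in R 4.3.3, with DESeq2 1.42.0 and limma 3.58.1 as alternatives. The code was tested on simulated data, and with 1 residual degree of freedom the test can miss large changes. Within a line, intervals of shifts are exact conditional binomial intervals at 95%. P-values measure only the spread between 4 libraries, which may be technical. The members, lists and rules were chosen with earlier results of these data known. Genes named with every count were the 8 of highest mean CPM, the 5 highest and 5 lowest shifts in each line and over both, any with a 2-fold shift the same way in both lines (there were 0), and those whose peaks differ by 2-fold. Others were named as examples after their values were seen. The planned design assumed no other unit than counts.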

Additional observations from a re-analysis of the deposited data

Results flagged for a closer look

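The median shift of the MRPL and MRPS genes, the library labelled sgNAT10 minus NC, was 0.50 in 143B and -0.56 in HOS. The pair is listed here because the only comparison in one line went one way and the only comparison in the other line went the opposite way. With 1 library per line and genotype the difference between the lines was not tested. With library totals in place of TMM the HOS median was -0.01, and the 143B median was 1.10.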

How the results depend on the processing

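No member passed an adjusted p of 0.05 under any setting tried that kept all 4 libraries. Few of all genes did: 0 of 8058 in the main setting, 7 of 9093 unfiltered and 3 of 4752 averaging at least 50 counts. The count was 5 of 1883 near gene ends and 6 of 7643 with a 300 bp limit on peak width. In limma it was 16 of 8058. Among peaks averaging at least 100 counts, 65 of 5938 passed. With 1 library left out, a genotype had 1 library alone, so those fits could not decide this and no count is given. No called value of a named gene, a shift of 2-fold or more, changed sign, but smaller shifts did. With upper quartile factors the 143B shift went from -0.23 to 0.19 in MRPL2 and from -0.24 to 0.18 in MRPS25. Members higher in 143B and lower in HOS, 36 of 48 in the main setting (22.8% of all genes), were 44 of 48 with those factors (34.6%). With library totals they were 24 of 47 (17.3%). Of the named genes' values under alternatives, 562 stayed within the counting interval of the main value and 114 did not. The 143B median of 0.50 was 0.92 with upper quartile factors, 1.10 with library totals, 0.70 with TMM without the rRNA block and 0.75 with TMM over filtered peaks. It was 0.56 with the highest peak of each gene, 0.66 from peaks within 500 bp of a gene end, 0.74 from peaks within 500 bp of the 3′ end and 0.14 from peaks farther from both ends. By bacterial counterpart it was 0.38 in the class with one and 0.66 in the class without. The HOS median of -0.56 was -0.75 with DESeq2 size factors, -0.78 with upper quartile factors, -0.01 with library totals, -0.85 without the rRNA block and -0.87 from peaks far from ends. The count of members higher by 2-fold in 143B, 9, was 22 with upper quartile factors, 28 with totals, 16 without the rRNA block, 17 with TMM over filtered peaks and 1 from peaks far from ends. The share of all genes, 14.5% in the main setting, was 25.8% with upper quartile factors and 32.6% with totals. Shares for the counts of 16, 17 and 1 are not given here, so those counts describe the members alone. The count lower by 2-fold in HOS, 13, was 20 with DESeq2 size factors, 21 with upper quartile factors, 3 with totals, 22 without the rRNA block, 7 near ends and 8 far from ends. The share of all genes, 12.8% in the main setting, was 17.4% with DESeq2 size factors, 18.1% with upper quartile factors and 3.47% with totals. For the counts of 22, 7 and 8 no share is given either. A change of scaling adds 1 constant to every gene of a line, and fewer genes were tested near and far from ends; other causes were not tested. TMM over filtered peaks, the classes by counterpart, the 3′-end peaks and DESeq2 on peaks were chosen after seeing the data. The main model pairs the genotypes within each cell line, and without the cell line as a block 0 members passed as well (smallest adjusted p = 0.998 in edgeR). No paired analysis by replicate number was possible because each cell line and genotype had 1 library.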
